A study of Mus musculus with 6 samples.

Results

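The intergenic circular RNAs (circRNAs) are the rows of the deposited table whose class column reads intergenic, meaning that the authors' annotation step placed their back-splice junction in no gene. There were 335 of them among 18136 listed circRNAs (1.85%), and all 335 stood in the table without a host gene. All 335 also lacked a circRNA database identifier, as did 98.4% of the whole table. They held 1436 of 190023 junction reads. The 6 libraries were made from circRNA-enriched total RNA of mouse brain, 3 from wild-type mice (WT) and 3 from A53T transgenic mice, a model of Parkinson disease named for an alpha-synuclein mutation. The study compared the groups to find circRNAs that differ in the model. The sample labels give brain as the tissue while the series text names the substantia nigra of the midbrain. Strain, age, sex and the promoter of the transgene are not given in the labels, nor do these state that the libraries come from separate animals. The spread that p-values rest on here is therefore that of these libraries and may be technical.

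A circRNA forms when the spliceosome joins the end of a downstream exon to the start of an upstream one, and the ring that results has no free ends. Such rings are abundant in brain, where neuronal genes are the main hosts. A junction outside annotated genes may belong to an unannotated transcript or to a gene that the annotation in use lacks. The mitochondrial genome is different again: it is transcribed as long precursors from both strands, which are cut into ribosomal, messenger and transfer RNAs, and its genes hold no introns.

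The libraries held 25217 to 36390 junction reads. Hosts of the neuronal marker list had junction reads for 10 of 10 genes, between 1120 and 2068 per WT library and between 1902 and 2052 per A53T library. The dopamine neuron list had reads for 1 of 6 genes (14 to 27 reads per WT library, 22 to 49 per A53T library), and the defining genes Th, Slc6a3, Slc18a2, Ddc and Nr4a2 stood at 0. Microglia, liver and muscle lists stood at 0 of 3 genes each. The oligodendrocyte list had 2 reads and the astrocyte list 21. These are reads of circRNAs, so a marker at 0 says that no circRNA of that gene was listed. In bulk tissue, fewer cells of a type and less RNA per cell cannot be told apart.

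The class label did not hold for part of the members. Of the 335, 76 (22.7%) lay on the mitochondrial chromosome, and every mitochondrial circRNA in the table was in this class. By the reference annotation 69 of these 76 lay inside a single mitochondrial gene, 64 of them on the strand of the gene and 5 on the other strand. A further 6 ran across neighbouring genes and 1 touched no gene. The other 259 (77.3%) lay on nuclear chromosomes or unplaced scaffolds and are called nuclear below. The mitochondrial coordinates could be read against the reference because the mitochondrial record is shared by the builds. For nuclear coordinates no genome of the build of the files was used here, and nuclear members are placed only by the named circRNAs around them.

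Junction bases were read for the mitochondrial members only, since their sequence could be taken from the reference. Exon junctions were not read for comparison. Below, each name gives the coordinates of the circle on the plus strand of the mitochondrial chromosome (mm39 in the files), taken from the mitochondrial part of the GENCODE M21 transcripts. Each line runs from 5′ to 3′ along that strand. The start side shows 12 bases before the first base of the circle and 18 inside it, and the end side shows 18 bases inside and 12 after. Capitals mark the bases that stand identically at both ends, a direct repeat. The first pair belongs to the most read member, the next 3 to members with long repeats, and the last to a frequent member with 1 repeated base.
chrM:1359-1562 start side: ctacctAAAAACaattttatgaatcaactc
chrM:1359-1562 end side: ttctggaacggaAAAAACctttaatagtga
chrM:12921-13211 start side: tactcaaaagaCCTAATTATTgaagcaatt
chrM:12921-13211 end side: tttttaaaaaccacagcCCTAATTATTtca
chrM:2260-2427 start side: ggttggggtGACCTCGgagaataaaaaatc
chrM:2260-2427 end side: acaattagggtttacGACCTCGatgttgga
chrM:10806-10961 start side: tatggagttcaCCTATGActaccaaaagcc
chrM:10806-10961 end side: cccttcatccttctctcCCTATGAggaata
chrM:1527-1702 start side: tttagattataGccaaaagagggacagctc
chrM:1527-1702 end side: tcctaaacttaaaattgGgttaatctataa

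Repeats of this kind were frequent at the mitochondrial junctions. Bases on both sides of both ends were known for 73 of the 76. A direct repeat of at least 3 bases stood at 25 of the 73 (34.2%), and these held 191 reads (55.4%). A repeat of at least 5 bases stood at 12 (16.4%), which held 132 reads (38.3%). The longest had 10 bases, in mt-Nd5, at a member with 2 reads in A53T library 1 alone, and the median was 1. Among all start and end pairs of the same range of spans (150 to 364 nt) in the same sequence that carry the splice letters described next, 7.12% had a repeat of at least 3 bases and 0.906% one of at least 5. Of the reads of these 73 junctions, the share with a repeat of at least 3 bases was 55.2, 76.8 and 60.5% in WT libraries 1, 2 and 3, and 30.2, 54.3 and 58.6% in A53T libraries 1, 2 and 3. The groups overlapped, as they did at 5 bases. With a repeat of at least 1 base the share was 89.6, 89.3 and 86% in WT and 65.1, 71.7 and 77.1% in A53T, and every WT library was above every A53T library. This split was not tested.

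All 73 junctions carried the letters of a canonical splice site, AG just before the acceptor end and GT just after the donor end, on 1 of the strands. Of all 3229405 pairs of the same spans, 0.731% carried them. Whether the authors' calling step required these letters is not given in the sources used here, and a match of letters is not a splice site. The strand of the letters mostly differed from the strand in the table. In 57 of 73 (78.1%, with 81.7% of the reads) the letters stood on the strand opposite to the listed one, and in 16 (21.9%, 18.3% of the reads) on the listed strand. The circle chrM:1359-1562 is of the first kind: it is listed on the plus strand, with AC before its start and CT after its end, which read AG and GT on the minus strand. The circle chrM:1527-1702 is of the second kind, with AG before its start and GT after its end on the listed strand. Of all pairs in this sequence with either arrangement, 81.3% had it on the minus strand. Of the 25 junctions with a repeat of at least 3 bases, 22 had the letters on the opposite strand and 3 on the listed strand.

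Most mitochondrial reads, though not most mitochondrial members, came from ribosomal RNA genes, with 34 of the 76 members and 243 reads (65.9%). The gene mt-Rnr2, which encodes the 16S RNA of the large mitochondrial ribosomal subunit (chrM:1094-2675), held 31 of them on its own strand and 217 reads (58.8% of mitochondrial reads). Its reads per library were 41, 36 and 38 in WT and 40, 33 and 29 in A53T. Every library therefore held at least 29 reads of this gene. The gene mt-Rnr1, which encodes the 12S RNA of the small subunit (chrM:70-1024), held 3 circles and 26 reads, distributed as 9, 0 and 0 in WT and 3, 8 and 6 in A53T. WT libraries 2 and 3 had none. Per length, mt-Rnr2 stood at 137 reads per kb and mt-Rnr1 at 27.2 reads per kb over the 6 libraries. The circle chrM:70-233 held 19 of the mt-Rnr1 reads (7, 0 and 0 in WT, 3, 6 and 3 in A53T) and began at the first base of the gene.

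Protein-coding mitochondrial genes followed at lower levels. The gene mt-Nd5, a subunit of respiratory complex I, held 12 circles and 35 reads (19.2 per kb). Read by library, these were 8, 11 and 2 in WT and 4, 5 and 5 in A53T. The gene mt-Co1, a core subunit of cytochrome c oxidase, held 6 circles and 22 reads on its strand (14.2 per kb), and mt-Cytb, the cytochrome of complex III, 6 circles and 14 reads (12.2 per kb). The complex I genes mt-Nd2 and mt-Nd4 held 12 and 9 reads. The gene mt-Nd6 is encoded on the opposite strand to most mitochondrial genes, and its 3 circles with 10 reads lay antisense to it. In all, 9 of 37 mitochondrial genes held a circle within a single gene, and no circle lay within a transfer RNA gene. The shortest span listed in the whole table was 150 nt, so a shorter gene, such as one for a transfer RNA, could not hold a circle. Both counts were partly fixed by this floor. By strand, 71 mitochondrial circles were listed on the plus strand. The minus strand (chrM:5572-15696) held 5 circles and 12 reads, 2, 0 and 2 in WT and 3, 0 and 5 in A53T.

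**Figure D1:**
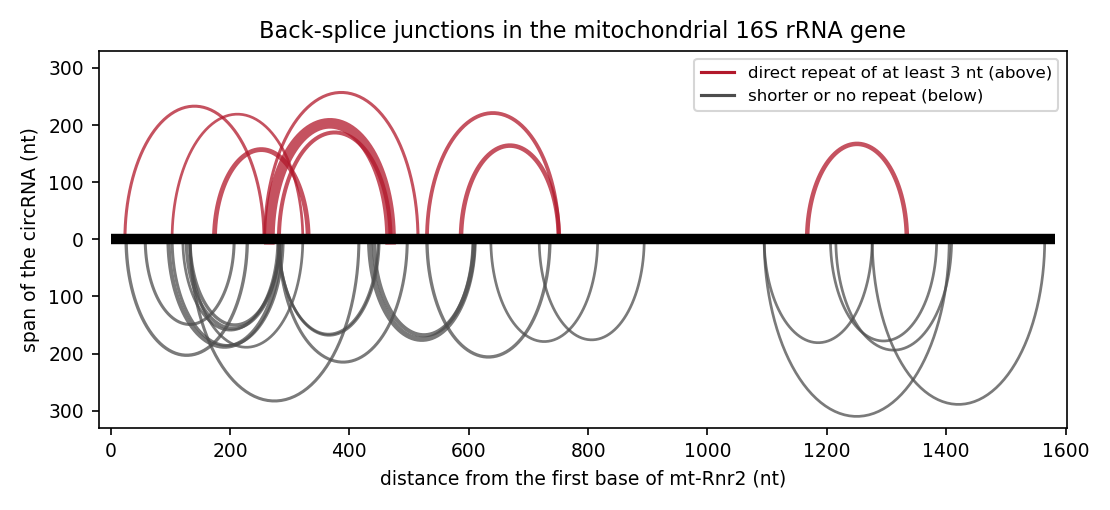
Each arc is 1 circRNA on the strand of mt-Rnr2, drawn from its start to its end in nt from the first base of the gene, with its span in nt as height and a wider line for more reads. Arcs above the gene have a direct repeat of at least 3 bases at their ends and arcs below a shorter one or none; the widest arc above is the most read member with 82 reads.

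Mitochondrial members were all short, while nuclear members were both short and long. The length column of the table equalled the genomic span for all 335, as it did for 100% of intronic, antisense and sense overlapping circRNAs. Mitochondrial spans ran from 150 to 364 nt with a median of 183 nt. Nuclear spans ran from 150 to 99540 nt with a median of 1088 nt (interquartile range 213.5 to 9333 nt), and 103 of 259 (39.8%) were at most 400 nt. These 103 had a median of 200 nt, near the mitochondrial median, and the remaining 156 had a median of 6614 nt. The nuclear spans therefore covered both the short range of the 1580 intronic circRNAs (median 243 nt) and the range of the 372 antisense ones (median 6726 nt).

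**Figure D2:**
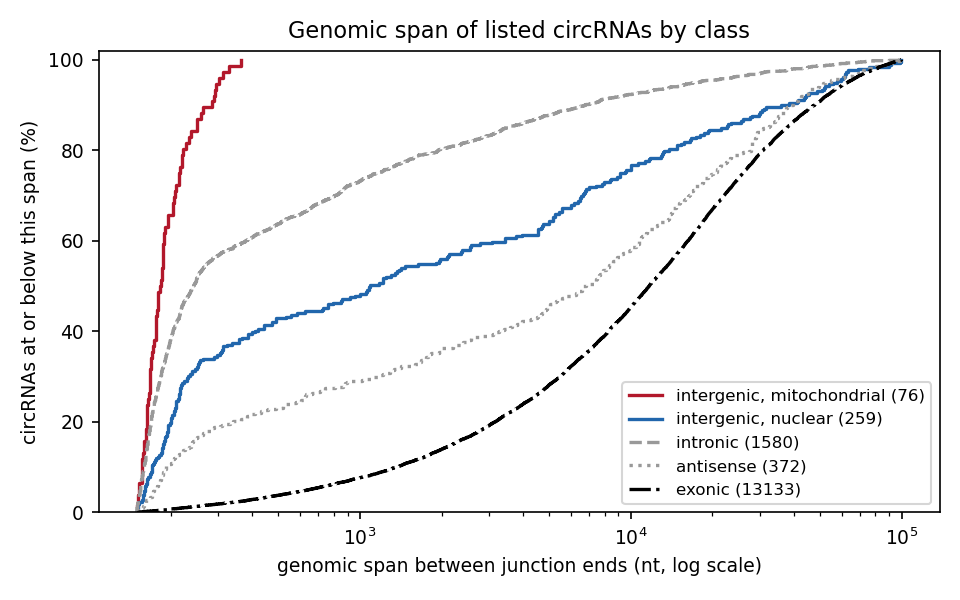
The horizontal axis is the genomic span between the junction ends in nt on a log scale, and the vertical axis is the percent of the circRNAs of a class at or below it. All 76 mitochondrial members end at 364 nt, and 39.8% of the nuclear ones lie at or below 400 nt before a long tail.

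Most members were seen once. Of the 335, 252 (75.2%) were read in a single library, against 50.7% of the whole table, 90.3% of intronic, 78% of antisense and 40.7% of exonic circRNAs. Single-library members held 647 reads (45.1%), 150 of them had 2 reads, and none had more than 6. Of the mitochondrial members 64.5% were read in a single library, and of the nuclear ones 78.4%. Only 6 (1.79%) were read in all 6 libraries, against 8.8% of the table, and these 6 held 245 reads (17.1%). Each member had at least 2 reads in its best library, so circRNAs with fewer are not listed.

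Within a library, the circRNAs of this class were shorter, had fewer reads and shared fewer ends than those of all other classes. The median span of those read in a library averaged 776 nt ± 473 (SD, n = 6), against 10580 nt ± 297 for the other classes. They had 2.87 ± 0.275 reads per circRNA against 4.62 ± 0.247. A junction end identical to that of another listed circRNA was found for 34.3% ± 7.13 against 67.4% ± 0.681, and 49.3% ± 7.06 against 21.9% ± 1.57 were read in no other library. Each of these 4 differences had the same sign in 6 of 6 libraries (exact two-sided sign-flip test, p = 0.0312, the smallest that 6 libraries can give, and 0.0417 after Benjamini-Hochberg adjustment over 12 comparisons). The 6 values are not independent, since a circRNA read in several libraries counts in each with the same span and ends. Being read in no other library is also defined by the other libraries. These p-values, and those of the next paragraph, therefore describe agreement among these libraries only.

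Against the intronic class the differences were partly opposite. Intergenic circRNAs shared an end more often (34.3% against 17.9% ± 2.32), were less often read in no other library (49.3% against 73.8% ± 4.42) and had fewer reads each (2.87 against 3.57 ± 0.234), all in 6 of 6 libraries (exact test, adjusted p = 0.0417). Their span did not separate from that of intronic circRNAs (358 nt ± 70, higher in 4 of 6 libraries, exact adjusted p = 0.188). Against the antisense class they were shorter (776 against 6662 nt) and shared more ends (34.3% against 18.9% ± 2.93), again in 6 of 6 libraries (exact adjusted p = 0.0417). Reads per circRNA (exact adjusted p = 0.075) and the share read in no other library (exact adjusted p = 0.102) did not pass against the antisense class.

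Counted over the whole list, an exact end was shared with another listed circRNA by 31.6% of the mitochondrial members, by 26.9% of the nuclear members above 400 nt and by 6.8% of those up to 400 nt. For exonic circRNAs it was 65.3%, for sense overlapping ones 45.1%, for antisense ones 12.6% and for intronic ones 9.81%. Circles with nearly the same ends were more frequent among mitochondrial members. Both ends lay within 10 nt of those of another circRNA, identical ends included, for 11 of 76 (14.5%). This compares with 8 of 259 nuclear members (3.09%). It was 3.17% for sense overlapping, 1.27% for intronic, 0.83% for exonic and 0% for antisense circRNAs. Most of the 11 had 1 end identical to that of their neighbour, as did chrM:1220-1376 and chrM:1226-1376. A total of 18 nuclear members shared an end with a circRNA that the table assigns to a named host, over 13 hosts. Of the 17 circRNAs they shared it with, 14 were of the sense overlapping class and 3 antisense. In all, 24 nuclear members overlapped a named circRNA on their own strand, although their own host column is empty.

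By chromosome, 28 members with 179 reads lay on chromosome 12 and 19 members with 166 reads on chromosome 7. The share of a chromosome's listed circRNAs that were intergenic ran from 0.526% on chromosome 2 to 3.05% on chromosome 12 among the numbered chromosomes and X. When members on 1 strand whose spans overlap or lie within 50 kb were joined, they formed 213 loci, of which 211 were nuclear. A single circRNA made up 183 of the nuclear loci.

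The nuclear locus with most reads lay on the minus strand of chromosome 7 (chr7:60662780-60766707) and held 5 circles with 107 reads, 6, 18 and 17 in WT and 18, 17 and 31 in A53T. It overlapped circRNAs that the table assigns to A230006K03Rik, a gene with a RIKEN clone name, and lay 73.2 kb from the nearest circRNA of Gm44644. The circle chr7:60722465-60766707 had 2, 11 and 6 reads in WT and 5, 3 and 12 in A53T. The circle chr7:60736195-60766707 had 2, 5 and 9 reads in WT and 2, 1 and 2 in A53T. These circles share their 5′ end on the minus strand, at base 60766707. Their other ends, at 60722465 and 60736195, are also used by circRNAs assigned to A230006K03Rik.

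Some ends in this locus faced each other and enclosed a short stretch. Whether that stretch is an exon was not tested. The position 60766707, where 3 intergenic circles begin, and the position 60766607, where 2 circRNAs of A230006K03Rik finish, enclose 101 nt. The third of these circles, chr7:60705005-60766707, had 0 reads in every WT library and 1, 3 and 1 in A53T. A stretch of the same length, chr7:60552360-60552460, was enclosed in the same way by the intergenic circle chr7:60494742-60552460 (2 reads) and circRNAs of Gm44644. Facing ends were searched for among circRNAs over 400 nt and up to an enclosed length of 400 nt. Within that limit no other of the 156 long nuclear members had one. Longer stretches were enclosed elsewhere, as between bases 5629726 and 5630161 on chromosome 12. Whether the stretches of 101 nt on chromosome 7 share sequence, which could split reads between them, was not tested without the genome. The counts at both are uncertain for that reason. Farther along the chromosome, the member chr7:59581605-59581779 (3 reads, in A53T library 1 alone) lay within the span of circRNAs assigned to the imprinted noncoding host Snhg14 on the same strand.

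**Figure D3:**
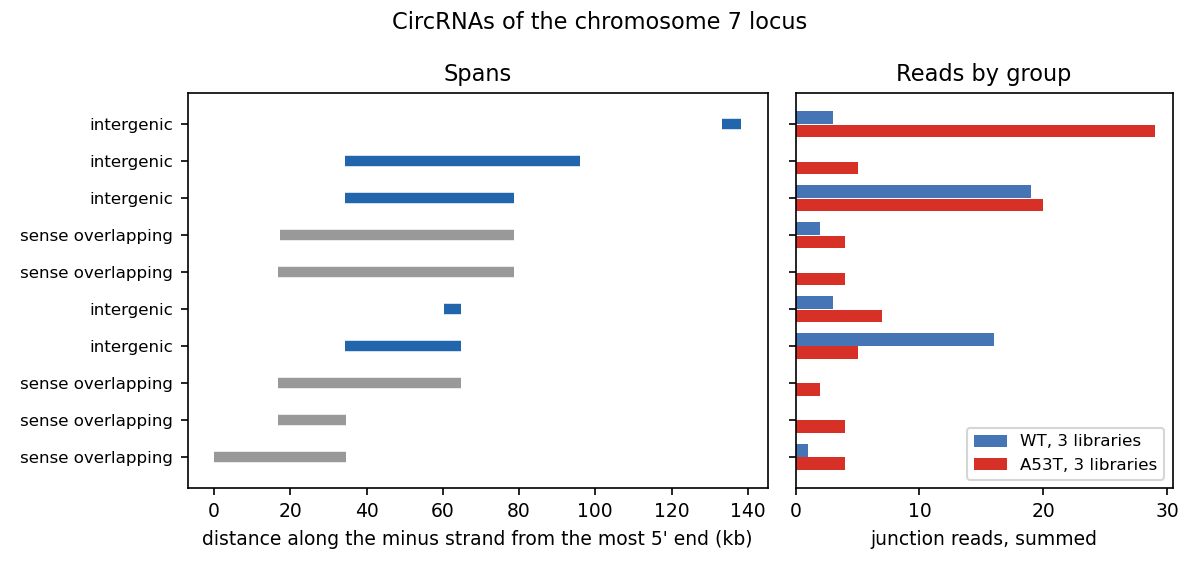
The left panel draws the circRNAs of the chromosome 7 locus as bars along the minus strand, in kb from the most 5′ end, intergenic ones in blue and those assigned to A230006K03Rik in grey. The right panel gives the junction reads of each, summed over the 3 libraries of a group; the top circle has 3 reads in WT and 29 in A53T.

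Chromosome 12 held the next loci. On its plus strand, chr12:5491598-5631024 had 7 circles and 59 reads, 15, 15 and 7 in WT and 5, 7 and 10 in A53T. Its most read circle, chr12:5501681-5502852, ended at base 5502852 together with a circRNA assigned to 2810032G03Rik, and 3 other circles of the locus began at base 5611604, as did a circRNA listed antisense to Gm5652. The locus chr12:6086104-6184692 had 5 circles and 32 reads, 4, 4 and 14 in WT and 1, 2 and 7 in A53T. Library 3 held the most reads in either group. Members here re-used the start at 6086104 (3 circles) and the end at 6184692 (2 circles).

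The second most read member, chr12:109684548-109684933, was a short circle of 386 nt in a cluster of noncoding genes, 22.1 kb from the nearest circRNA of B830012L14Rik and 16.1 kb from that of Mirg, a microRNA host gene of the imprinted Dlk1-Dio3 region. It had 11, 5 and 6 reads in WT and 7, 13 and 6 in A53T, so the groups overlapped. The same coordinates were listed on the minus strand with 2 reads, and a circle ending at base 109684989 was listed on both strands with 2 reads each. These 4 rows were the members listed on both strands. On chromosome 13, chr13:97635776-97643624 stood alone, 348.9 kb from the nearest named circRNA. On chromosome 14, chr14:10747192-10794049 had 4 circles and 26 reads, 4, 5 and 9 in WT and 0, 8 and 0 in A53T, so A53T library 2 alone held its reads in that group. On chromosome 17, chr17:40155923-40156248 had 4 overlapping short circles with 25 reads, 2, 10 and 4 in WT and 8, 1 and 0 in A53T.

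Between A53T and WT, none of the intergenic circRNAs changed by the test. Only 5 of 335 had at least 5 reads in at least 3 libraries and could be tested, and 0 of the 5 passed an adjusted p of 0.05 (edgeR's quasi-likelihood test on counts, Benjamini-Hochberg adjustment over 1214 circRNAs of all classes, of which 0% passed). DESeq2 also called 0. At an unadjusted p of 0.05, 1 of the 5 passed, against 4.7% of all tested circRNAs. The groups did not overlap for 2 of the 5, against 11.3%. The circle that passed was chr7:60662780-60667780, which met the read filter only through its A53T reads. It was also 1 of the 2. The other was chr13:97635776-97643624, whose WT reads met the filter by themselves. A filter met through 1 group favours such splits, so these counts are not read as a rate. The median log2 fold change of the 5 was 0.08 (3 higher and 2 lower in A53T), beside -0.01 over all tested circRNAs (587 higher and 627 lower). The members that could not be tested are described by their reads alone.

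The mitochondrial circle chrM:1359-1562 in mt-Rnr2, the most read member, had 11, 17 and 19 reads in WT and 5, 19 and 11 in A53T. The groups overlapped, with A53T library 1 lowest. Its level was 512 ± 208 CPM (reads relative to the TMM-adjusted library total) in WT and 367 ± 214 in A53T (SD, n = 3), a log2 fold change of -0.44 with a standard error of 0.49 (edgeR adjusted p = 0.993). The 95% interval ran from -1.44 to 0.55.

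Of the 2 tested circles of the chromosome 7 locus, chr7:60662780-60667780 had 0, 1 and 2 reads in WT and 8, 5 and 16 in A53T, and every A53T library was above every WT library. Its level was 35.2 ± 39.1 CPM in WT and 306 ± 172 in A53T (SD, n = 3). The log2 fold change was 3.11 with a standard error of 0.94 (edgeR unadjusted p = 0.00219, adjusted p = 0.469). The ratio of reads, scaled by library size, was 9.8 with an exact counting interval of 3.04 to 50.3, and between 6.3 and 21.4 with any 1 library left out. It was tested only through its A53T reads, and it failed the read filter without any 1 of the A53T libraries. The circle chr7:60722465-60766707 of the same locus stood at 200 ± 128 CPM in WT and 211 ± 143 in A53T, a log2 fold change of 0.08 with a standard error of 0.75 (edgeR adjusted p = 1).

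The other tested circles showed no called change. The circle chr13:97635776-97643624 had 6, 6 and 5 reads in WT and 5, 1 and 3 in A53T, with the highest A53T library level with the lowest WT library. After scaling the groups did not overlap, but only just. The lowest WT library stood at 168.6 CPM and the highest A53T library at 167.6 CPM, where 1 read was worth at least 28.1 CPM. The means were 179 ± 12.7 and 97.2 ± 68.3 CPM. The log2 fold change was -0.87 with a standard error of 0.89 (edgeR adjusted p = 0.993). The circle chr12:109684548-109684933 had a log2 fold change of 0.25 with a standard error of 0.63 (edgeR adjusted p = 0.999).

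Of the 8 most read members, 3 had too few reads to be tested, and each had more reads in WT. The circle chr12:5501681-5502852 had 8, 10 and 4 reads in WT and 1, 2 and 4 in A53T, which touch at 4. After scaling, the WT libraries lay at 155 to 281 CPM and the A53T libraries at 33.5 to 123.5 CPM, and the groups did not overlap. The scaled ratio of WT to A53T reads was 3.1 (exact counting interval 1.28 to 8.59), and the interval reached below 1 without WT library 2 (0.978 to 8.08) or without A53T library 1 (0.972 to 7.45). For chr7:60736195-60766707 it was 3.2 (1.11 to 11), and 1.89 (0.517 to 7.57) without WT library 3. For chr14:10748554-10755291 (4, 3 and 7 reads in WT, 0, 6 and 0 in A53T) it was 2.3 (0.831 to 7.31). Leaving out A53T library 2 left that circle with 14 reads in WT and 0 in A53T, and leaving out A53T library 3 gave a ratio of 1.51 (0.546 to 4.8). These intervals cover counting error only and carry no spread between samples.

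**Figure D4:**
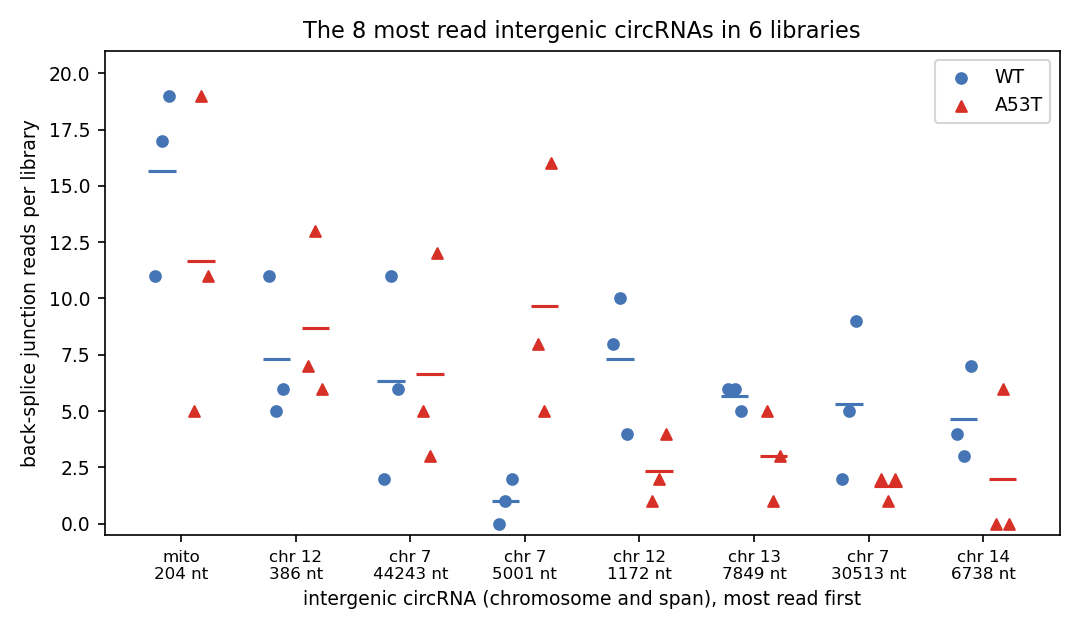
Each point is the number of back-splice junction reads of a circRNA in 1 library, WT as circles and A53T as triangles, with a bar at the mean of the 3 libraries; circRNAs are ordered by total reads and named by chromosome and span. The groups overlap for most, and the fourth, with a span of 5001 nt, has 0 to 2 reads in WT and 5 to 16 in A53T.

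Summed by locus, 6 of 213 loci could be tested and 0 passed (edgeR's quasi-likelihood test, adjustment over 1215 loci and other circRNAs, of which 0% passed; DESeq2 also 0). At an unadjusted p of 0.05 the count was 0, against 4.61%. The groups did not overlap for 1 of the 6, against 11.3%. This was chr13:97635776-97643624, whose WT reads met the filter by themselves. The chromosome 7 locus stood at 446 ± 246 CPM in WT and 698 ± 230 in A53T (SD, n = 3), a log2 fold change of 0.67 with a standard error of 0.43 (adjusted p = 0.989). The plus strand of the mitochondrial chromosome, 71 circles summed, had 72, 56 and 43 reads in WT and 64, 52 and 70 in A53T. With 1783 ± 289 and 1977 ± 310 CPM its log2 fold change was 0.15, and the interval of -0.33 to 0.62 was the narrowest of the 6. The chromosome 12 locus at 5491598 had a log2 fold change of -0.70 with a standard error of 0.54 and the chromosome 14 locus one of -1.19 with a standard error of 1.01 (edgeR adjusted p = 0.989 for both).

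As a share of a library's junction reads, the class lay at 0.819, 0.761 and 0.765% in WT and 0.754, 0.674 and 0.760% in A53T. The lowest WT library stood just above the highest A53T library. The means were 0.782% ± 0.032 and 0.729% ± 0.048 (SD, n = 3). With 3 libraries against 3 an exact permutation test, the test used for shares, cannot go below 0.1 and so calls none of them. The mitochondrial and nuclear parts differed in direction: the mitochondrial share was 0.224, 0.154 and 0.178% in WT and 0.225, 0.162 and 0.225% in A53T, and the groups overlapped.

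The nuclear share was 0.596, 0.607 and 0.587% in WT and 0.530, 0.513 and 0.534% in A53T, and every WT library was above every A53T library. The means were 0.597% ± 0.010 and 0.525% ± 0.011. The Wilson intervals of single libraries are wider than this gap: the lowest WT library had 0.500 to 0.689% and the highest A53T library 0.462 to 0.619%, and the SDs of both groups were smaller than the counting error of a single library. Of 6 categories of circRNA, counting mitochondrial and nuclear intergenic ones apart, this was the 1 whose groups did not overlap. Within it, spans over 400 nt held 0.413% ± 0.0077 in WT and 0.347% ± 0.034 in A53T without overlap, and spans up to 400 nt 0.183% ± 0.014 and 0.179% ± 0.037 with overlap. Counting only nuclear members read in at least 2 libraries, the shares were 0.312% ± 0.063 and 0.262% ± 0.035, and the groups overlapped.

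**Figure D5:**
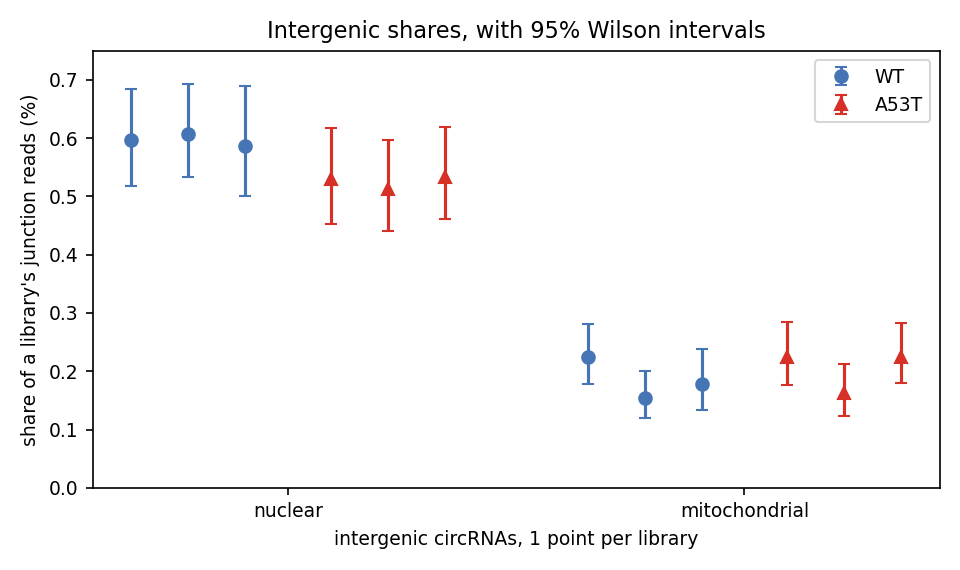
Each point is the percent of a library's junction reads in nuclear or in mitochondrial intergenic circRNAs, with its 95% Wilson interval, WT as circles and A53T as triangles. The nuclear points lie between 0.587 and 0.607% in WT and between 0.513 and 0.534% in A53T, with overlapping intervals, and the mitochondrial points overlap.

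The number of intergenic circRNAs with at least 2 reads was 78, 81 and 51 in WT and 76, 60 and 76 in A53T (70 ± 16.5 and 70.7 ± 9.24, SD, n = 3). The groups overlapped, and the lowest library, WT 3, was also the one with the fewest junction reads.

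Most members were read in 1 group alone, since 252 of the 335 were read in a single library. By a stricter rule few were confined to 1 group. With at least 2 reads in at least 2 libraries of a group and 0 in the other, 4 of 335 (1.19%) were seen in A53T only, against 1.41% of the whole table, and 2 (0.597%) in WT only, against 1.2%. Those in A53T were chr12:5501681-5592698 (2, 4 and 0 reads), chr18:85379081-85379335 (2, 2 and 0), and the mt-Rnr2 circles chrM:1226-1376 (2, 0 and 2) and chrM:1623-1829 (2, 2 and 0). Those in WT were chr2:50371477-50372694 (2, 3 and 1) and chr19:60647299-60653703 (2, 0 and 3). The first of the WT pair ended at base 50372694 together with a circRNA assigned to Gm13483, which had 2, 2 and 2 reads in WT and 0, 0 and 1 in A53T. At these depths 0 reads in a group does not show that the circle is absent there.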

How the data were processed

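The deposited table gives a count of reads across each back-splice junction in the 6 libraries, with no normalization, and, per the file headers, log2 CPM values made by the authors. Per the labels' protocols, libraries were strand-marking and read as 150 bp pairs after circRNA enrichment. Among tools and builds, cutadapt 1.9.3, edgeR 3.16.5, STAR and mm39 appear in the submitters' processing notes. The circRNA caller, annotation and strand use are those of the authors and not given in the sources used here. These log2 CPM values could be recalculated with a prior count of 2 (largest difference 0.122) and used for this check only.

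Tests were run on the deposited counts of the whole table, with library size as the sum of junction reads (338 rows without a gene name included, 0.69 to 0.828% of the reads, since they hold the members). Features with at least 5 reads in at least 3 libraries entered a robust quasi-likelihood fit with TMM scaling (edgeR 4.0.16, R 4.3.3), two-sided, with Benjamini-Hochberg adjustment. Within-library comparisons used exact sign-flip tests. Intervals are 95%. Wilson and exact conditional intervals and read floors cover counting error only, since without molecular identifiers PCR copies are not independent molecules. One read was worth 28.1 to 38.7 CPM, and the biological coefficient of variation was 33.7%. The script was tested on simulated data.

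The members and lists were chosen with earlier results of these data known. Named with values were all tested members, the 8 most read and those read in 6 libraries. So were the 5 loci with most reads, the 5 with most circRNAs, and members seen in 1 group only by the stricter rule. The class comparisons, the split into mitochondrial and nuclear members, the junction letters, repeats and facing ends, and other members named beside these, were chosen once the data had been seen. Alternatives were other scalings, filters and locus gaps, DESeq2 1.42.0, a replicate block and leaving out each library. Figures were drawn with matplotlib 3.10.9.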

Additional observations from a re-analysis of the deposited data

How the results depend on the processing

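The counts of called intergenic circRNAs and loci were 0 under all 12 and 14 alternatives, including DESeq2 and leaving out each library (range 0 to 0). A filter of 10 reads left 1 circRNA and 3 loci to test, and with no filter 1 of 335 circRNAs and 3 of 213 loci had an unadjusted p under 0.05, against 1.18% of all features in either fit. Same-numbered libraries of the groups did not deviate together (correlations of -0.033, 0.014 and 0.023). No pairing by number was seen, though such correlations cannot show that the samples were unpaired. A fit with the replicate block called 0 circRNAs and 0 loci. Pairing leaves the difference in share of -0.0527 percentage points (A53T minus WT) as it is by construction, and its exact p was 0.25 in pairs and 0.1 without. That difference lay between -0.0678 and -0.0252 with any 1 library left out and was 0.0184 for mitochondrial members alone. The nuclear difference of -0.0711 lay between -0.076 and -0.0647 with 1 library left out. The difference in detected circRNAs of 0.667 ranged from -8.83 to 6.17 with 1 library left out, was -2.33 at 3 reads and -5 for nuclear members alone, and its sign therefore depended on these choices. Leaving out 1 library moved the log2 fold change of chr12:109684548-109684933 between -0.13 and 0.59 and that of chr7:60722465-60766707 between -0.59 and 0.60, so neither has a direction. For chr7:60662780-60667780 it lay between 2.54 and 4.10 without 1 of the WT libraries (adjusted p 0.416 to 0.863, with its other alternatives inside both ranges), and it could not be tested without any 1 of the A53T libraries. Depth is a limit: with a median of 3 reads over 6 libraries, a change in most members was not detectable.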
